A study of Mus musculus with 30 samples.

Results

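ISG15 is a small protein that is joined to other proteins in the manner of ubiquitin, and 5 genes of its conjugation cycle were followed here in cultured mouse dendritic cells. They were Isg15 itself, the activating enzyme Uba7, the conjugating enzyme Ube2l6, the ligase Herc6 and the protease Usp18. The genes were named for their place in this cycle, and the list was chosen by a level of Uba7 that had stood out in these libraries. Which of the comparisons below drew attention to it was not recorded, so its levels and differences are given as a description with no test, and the adjusted p-values of the other 4 describe these libraries and are not independent evidence. The count table held 43629 genes, all 5 were in it, and all 5 passed the low-count filter in every comparison.

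The libraries were made from poly-A RNA of bone marrow-derived dendritic cells (BMDCs), which are marrow cells of adult mice of both sexes grown in GM-CSF, here for 6 days. WT cultures came from wild-type mice of the C57BL/6J substrain. The others came from Cacnb3-/- mice, which lack the calcium channel subunit Cacnb3 and were on the C57BL/6N substrain, so genotype and substrain cannot be told apart. Each genotype had 5 cultures, and each culture gave 3 libraries, whose names end in ctrl, 0p5h and 24h, for 30 libraries in all. Cultures are called here by the last part of their sample names, as s843 for p974s843. Per the protocol, cells received 500 µM ATP, a danger signal set free by damaged tissue, for 30 min and were collected directly or 24 h later. The sample names and the treatment field disagree on the first 2 sets. Libraries named ctrl carry the 30 min ATP treatment and those named 0p5h carry vehicle. Only the 24h set is given the same way in both, so the sets are called by their names below, and which of ctrl and 0p5h was unstimulated is not settled. All 24h libraries had received ATP and no vehicle library was collected at 24 h. In comparisons with the 24h set, ATP and time in culture therefore cannot be told apart. The labels do not say whether a culture number is 1 animal, so all p-values measure the spread between these cultures.

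Conjugation of ISG15 runs through the same 3 steps as that of ubiquitin. Uba7 activates ISG15 at the cost of ATP inside the cell, Ube2l6 takes it over, and Herc6, the main ISG15 ligase of the mouse, joins it to target proteins. Usp18 removes it again, and apart from that activity binds the type I interferon receptor and damps its signal. All 5 genes are known to be induced by type I interferon through the transcription factor complex ISGF3, and dendritic cells are a known source of such interferon.

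Several measures of the libraries moved with genotype and set before any gene of the cycle was considered. Total counts ran from 8237393 to 32164225 with a median of 19556920, and the library of Cacnb3-/- culture s843 at 24h was the smallest. Reads of mitochondrially encoded genes made up 0.707% to 5.61% of counts in WT libraries and 2.16% to 16.5% in Cacnb3-/- libraries. Counts also followed the GC content of the transcripts differently from library to library. The difference between genes of 60% and 40% GC, relative to the mean of all libraries, ran from 0.0392 to 1.03 (log2) in WT and from -1.04 to 0.390 in Cacnb3-/-, with a median of -0.867 in Cacnb3-/- at 24h. Cacnb3, the targeted gene, kept reads in the libraries labelled Cacnb3-/-. Its mean there was 1028 ± 196 CPM (counts per 1000000 counts of the library; SD, n = 5) against 1260 ± 112 in WT at ctrl, and 973 ± 277 against 1669 ± 366 at 24h. A count over the whole gene cannot show a deleted part, so this is no check of the labels. Nnt, which carries a deletion in C57BL/6J, overlapped between genotypes in every set. Cacnb3 was lower in every Cacnb3-/- library than in any WT library at 24h, as were 3.57% of the 13755 genes kept over all libraries.

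The sequence just before each gene's start is shown because the 5 genes are grouped as interferon targets and the ISGF3 complex binds a motif there, the interferon-stimulated response element (ISRE). The 100 bases before the start that the count table uses (GRCm38) are given 5′ to 3′ on the strand of the gene, from RefSeq's windows on GRCm38.p6. For Uba7 alone this start lies 62 bases before RefSeq's, so the bases between them are not shown. Capitals mark matches to the ISRE core GAAANNGAAA.
Isg15, chr4:156200819-156200918, minus strand: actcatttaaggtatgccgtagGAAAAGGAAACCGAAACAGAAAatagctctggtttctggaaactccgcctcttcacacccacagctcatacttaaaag
Uba7, chr9:107975405-107975504, plus strand: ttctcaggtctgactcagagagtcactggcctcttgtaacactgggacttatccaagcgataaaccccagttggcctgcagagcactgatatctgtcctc
Ube2l6, chr2:84798728-84798827, plus strand: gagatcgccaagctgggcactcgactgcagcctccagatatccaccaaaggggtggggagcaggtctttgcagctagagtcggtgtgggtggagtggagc
Herc6, chr6:57580892-57580991, plus strand: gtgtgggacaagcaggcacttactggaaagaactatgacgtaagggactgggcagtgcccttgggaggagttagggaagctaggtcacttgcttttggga

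RefSeq windows of 250 bases before to 50 bases after the start were searched on both strands, and 4 of the 5 genes had one. The exception was Usp18. Isg15 held 3 overlapping matches to the ISRE core, which began 78, 72 and 66 bases before its start. Uba7, Ube2l6 and Herc6 held none, which says only that these letters are not in this window. The core stood in 1131 of 32851 windows of all genes (3.44%) and in 17 of the 32 windows found for a list of 38 type I interferon-stimulated genes (53.1%). A second motif of interferon signalling, the GAS core TTCNNNGAA, stood in 2726 of all windows (8.30%), in 5 of those 32 and in none of the 4.

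Isg15 (ENSMUSG00000035692; GRCm38 chromosome 4, 156199424 to 156200818, minus strand) was the gene of the cycle that varied most between cultures. In the WT libraries named ctrl it stood at 51.7, 27.2, 94.6, 30.7 and 5.002 CPM in cultures s846, s850, s855, s856 and s864. In those named 0p5h it stood at 61.9, 13.3, 112, 36.7 and 8.78 CPM in the same order, and at 24h at 111, 17.1, 65.6, 55.8 and 6.67 CPM. Cultures s846, s855 and s856 were above cultures s850 and s864 in all 3 sets, and the highest library exceeded the lowest 18.9-fold at ctrl, 12.7-fold at 0p5h and 16.7-fold at 24h. Mitochondrial reads made up 0.707% to 2.55% of counts in the high cultures and 3.10% to 5.61% in the low ones. By the column names, all libraries of the low cultures were from sequencing lane 1, and of the high cultures only that of s846 at ctrl was. The part of either in this spread was not tested.

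The Cacnb3-/- cultures lay low and close together at first and higher at 24h. In cultures s843, s851, s852, s853 and s865 Isg15 stood at 6.16, 12.4, 5.20, 8.405 and 4.82 CPM in the libraries named ctrl. The values were 14.5, 11.8, 4.39, 7.50 and 9.18 CPM at 0p5h and 44.2, 22.3, 16.4, 32.4 and 14.1 CPM at 24h. Every culture was higher at 24h than in either earlier set. The WT culture s864 stayed within or below the range of the Cacnb3-/- libraries in each set, so the genotypes overlapped throughout.

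Uba7 (ENSMUSG00000032596; chromosome 9, 107975505 to 107984060, plus strand), the only enzyme known to activate ISG15, was lower in every Cacnb3-/- library than in any WT library of the same set. In WT cultures s846, s850, s855, s856 and s864 it stood at 157, 140.4, 163, 146 and 114 CPM at ctrl. It stood at 148, 126, 144, 141 and 137 CPM at 0p5h and at 187, 158, 185, 251 and 176 CPM at 24h. The WT libraries kept within 1.43-fold of each other at ctrl, 1.18-fold at 0p5h and 1.59-fold at 24h, a far narrower spread than that of Isg15 in the same libraries.

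In Cacnb3-/- cultures s843, s851, s852, s853 and s865 Uba7 stood at 108, 85.2, 85.1, 89.8 and 78.3 CPM at ctrl. It stood at 69.9, 86.5, 94.2, 118 and 90.4 CPM at 0p5h and at 58.7, 111, 97.3, 76.9 and 146 CPM at 24h. The nearest values of the genotypes were 108 and 114 CPM at ctrl, 118 and 126 at 0p5h, and 146 and 158 at 24h. Of the 13755 genes kept over all libraries, 1.24% lay this way at ctrl, 1.1% at 0p5h and 3.57% at 24h. Exons of Uba7 overlap the gene Gm20661 on the same strand, so reads there could not be assigned to 1 gene and the level of Uba7 is uncertain to that extent.

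Ube2l6 (ENSMUSG00000027078; chromosome 2, 84798828 to 84810335, plus strand), the enzyme that carries ISG15 to the ligase, was also lower in most Cacnb3-/- libraries. At ctrl the WT libraries stood at 75.3, 81.5, 122, 72.4 and 48.0 CPM and the Cacnb3-/- libraries at 27.9, 55.3, 63.0, 46.5 and 27.1 CPM, in the orders of cultures used above. At 0p5h the WT libraries stood at 82.8, 69.4, 127, 75.5 and 70.3 CPM and the Cacnb3-/- libraries at 35.1, 54.1, 62.5, 54.9 and 36.8 CPM, and at 24h they stood at 146, 104, 157, 128 and 91.8 against 64.6, 98.3, 83.9, 74.5 and 76.1 CPM. The genotypes did not overlap at 0p5h, where 1.1% of the 13755 genes kept over all libraries lay this way. They overlapped by 1 library of each genotype or more in the other 2 sets. WT culture s855 was the highest of its set each time.

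Herc6 (ENSMUSG00000029798; chromosome 6, 57580992 to 57665136, plus strand), the ligase, overlapped between genotypes in all sets. Its WT libraries stood at 149, 81.7, 178, 129 and 63.7 CPM at ctrl, at 134, 81.1, 179, 131 and 73.3 CPM at 0p5h and at 184, 110, 174, 92.0 and 78.7 CPM at 24h. Its Cacnb3-/- libraries stood at 78.7, 73.2, 118, 92.8 and 62.5 CPM at ctrl, at 81.7, 74.3, 132, 85.1 and 65.6 CPM at 0p5h and at 142, 144, 157, 150.2 and 86.6 CPM at 24h. WT cultures s846, s855 and s856, the cultures with high Isg15, were also the highest for Herc6 at ctrl and 0p5h, while at 24h culture s856 had fallen to 92.0 CPM. Cacnb3-/- culture s852 was the highest of its genotype in all 3 sets.

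Usp18 (ENSMUSG00000030107; chromosome 6, 121245906 to 121270916, plus strand), the ISG15 protease, stood at 63.4, 65.6, 70.8, 55.7 and 32.6 CPM in the WT libraries at ctrl, at 68.5, 63.2, 80.6, 64.8 and 43.2 CPM at 0p5h and at 136, 65.0, 99.2, 119 and 62.4 CPM at 24h. The Cacnb3-/- libraries stood at 34.8, 36.4, 45.2, 34.1 and 24.9 CPM at ctrl, at 39.9, 49.4, 59.2, 44.0 and 32.8 CPM at 0p5h and at 77.9, 72.4, 54.0, 52.9 and 52.0 CPM at 24h. In the libraries named ctrl only WT culture s864 lay within the Cacnb3-/- range. The plot of levels by culture shows the wide spread of Isg15 beside the narrow one of Uba7.

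**Figure D1:**
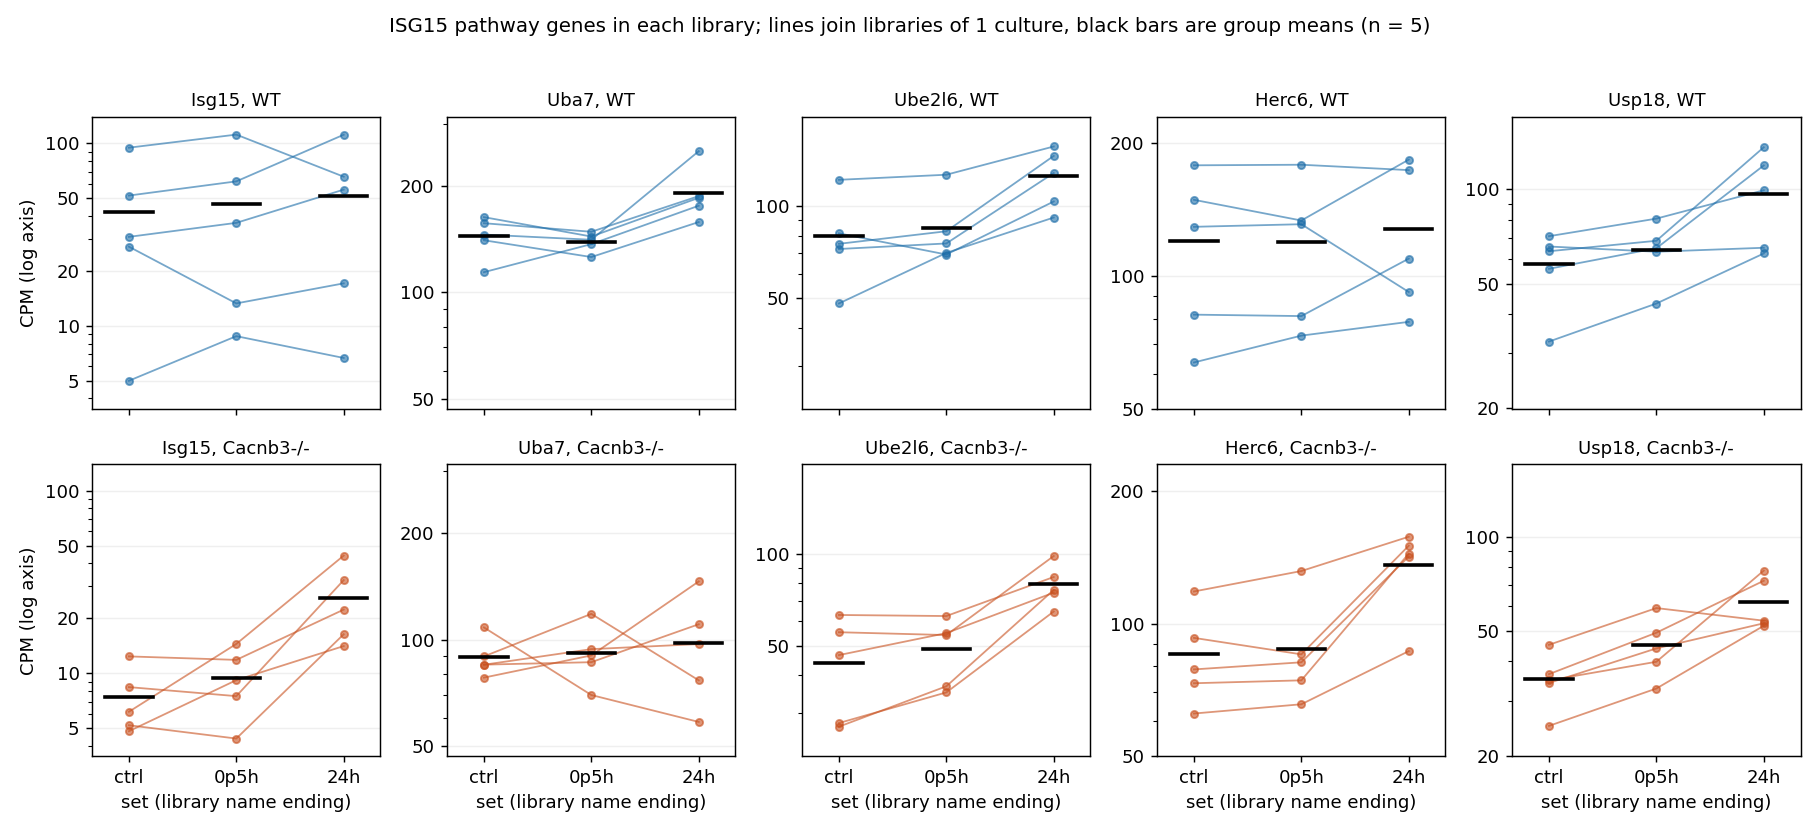
CPM of each gene (log axis, a range of its own for each gene) in the sets ctrl, 0p5h and 24h, WT above and Cacnb3-/- below; thin lines join the 3 libraries of 1 culture and black bars are the means of 5. Isg15 spans 5.002 to 112 CPM among WT libraries, and at ctrl the lowest WT library of Uba7 is at 114 CPM and the highest Cacnb3-/- library at 108 CPM.

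Per kilobase of exon, the scale on which levels of different genes can be set side by side, the order of the genes differed between the genotypes. In WT at ctrl the means were 55.4 ± 44.8 CPM per kb for Isg15, 40 ± 13.4 for Ube2l6, 32.6 ± 8.47 for Usp18, 22.8 ± 8.97 for Herc6 and 21.5 ± 2.84 for Uba7 (SD, n = 5). The intervals of 1 SD of neighbours in this order overlapped, although the means of Usp18 and Herc6 lay further apart than either SD. In Cacnb3-/- at ctrl they were 22.02 ± 8.08 for Ube2l6, 19.8 ± 4.08 for Usp18, 16.1 ± 4.07 for Herc6, 13.4 ± 1.71 for Uba7 and 9.78 ± 4.12 for Isg15, and the intervals of 1 SD of neighbours overlapped here too. Isg15 was the highest of the 5 per kilobase in 9 of 15 WT libraries and the lowest in 7 of 15 Cacnb3-/- libraries. Of those 7, 4 were from ctrl, 3 from 0p5h and none from 24h. Uba7 was never the highest, and it was the lowest in 8 WT and 7 Cacnb3-/- libraries.

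At 24h Isg15 had moved up among the Cacnb3-/- libraries. Per kilobase it stood at 34.2 ± 16.4 CPM there, beside 39.8 ± 6.28 for Ube2l6, 34.9 ± 6.97 for Usp18, 25.8 ± 5.36 for Herc6 and 14.6 ± 5.01 for Uba7. In WT at 24h the levels per kilobase were 67.9 ± 55.4 for Isg15, 62.8 ± 13.8 for Ube2l6, 54.4 ± 18.4 for Usp18, 28.6 ± 5.24 for Uba7 and 24.2 ± 9.12 for Herc6. Uba7 therefore had the lowest mean in Cacnb3-/- at 24h, and its interval of 1 SD did not reach that of Herc6.

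Between the genotypes, all 5 genes had lower means in Cacnb3-/- at ctrl and at 0p5h. The question behind this comparison is whether loss of Cacnb3 goes with another state of the cells with and without ATP. At ctrl the mean of Isg15 was 7.39 ± 3.12 CPM against 41.9 ± 33.8 in WT, that of Uba7 89.4 ± 11.5 against 144 ± 19.01, and that of Ube2l6 43.9 ± 16.1 against 79.8 ± 26.8. Herc6 stood at 85.1 ± 21.5 against 120.4 ± 47.3 and Usp18 at 35.1 ± 7.22 against 57.6 ± 14.99 CPM. These means of WT were 5.66, 1.61, 1.82, 1.42 and 1.64 times those of Cacnb3-/-.

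Of the 4 genes other than Uba7, to which the tests apply here and below, none was called between genotypes, where called means a Benjamini-Hochberg adjusted p under 0.05 over all genes tested and at least 2-fold, by edgeR's quasi-likelihood test. At ctrl the log2 fold changes (Cacnb3-/- over WT) were -2.48 for Isg15 (SE 0.587, adjusted p = 0.243), -0.84 for Ube2l6 (SE 0.282, adjusted p = 0.249), -0.69 for Usp18 (SE 0.208, adjusted p = 0.245) and -0.47 for Herc6 (SE 0.268, adjusted p = 0.379), and that of Uba7 was -0.67 (SE 0.125). At 0p5h they were -2.27 for Isg15, -0.79 for Ube2l6, -0.49 for Usp18 and -0.43 for Herc6, with edgeR adjusted p-values of 0.251 to 0.409, and -0.58 for Uba7 (SE 0.135). The same rule called 0 of 13022 genes at ctrl, 0 of 12806 at 0p5h and 0 of 12706 at 24h, a background of 0% in each. At an unadjusted p under 0.05 edgeR gave 3 of the 4 at ctrl, 3 at 0p5h and 2 at 24h, beside 2161, 2103 and 4877 of all genes (16.6%, 16.4% and 38.4%).

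DESeq2 called Isg15 at ctrl, with a log2 fold change of -2.49 (SE 0.639, adjusted p = 0.0159). It was the only 1 of the 4, beside 146 of 24992 genes (0.584%), and over all settings tried the adjusted p of this value ran from 0.0121 to 0.535. Here and below, shares of all genes by DESeq2 are of every gene with a p-value, with no low-count filter. They are therefore not on the base of the edgeR shares, which was 13022 genes at ctrl. DESeq2 called none of the 4 at 0p5h or 24h, beside 0.326% and 2.35% of all genes, although Ube2l6 (adjusted p = 0.00961) and Usp18 (adjusted p = 0.0398) passed its threshold below 2-fold at 24h, and limma-voom none in any set. Without WT culture s864, whose Isg15 was the lowest of WT, edgeR called Isg15 at ctrl as well, at -2.77.

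At 24h the log2 fold change of Isg15 was -0.98 (SE 0.594, adjusted p = 0.232), that of Ube2l6 -0.65 (SE 0.169, adjusted p = 0.0515), that of Usp18 -0.63 (SE 0.228, adjusted p = 0.0719) and that of Herc6 0.11 (SE 0.249, adjusted p = 0.775), all by edgeR. Uba7 had a log2 fold change of -0.95 (SE 0.222), with means of 98.0 ± 33.5 CPM in Cacnb3-/- and 191 ± 35.1 in WT. It passed 2-fold, at -1.13, without Cacnb3-/- culture s865, whose library held the highest level of its group and the lowest share of mitochondrial reads.

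Library measures moved with these differences, and their part was not tested beyond the values given here. With each library's GC trend removed, the log2 fold change at 24h was -0.63 for Uba7 and -0.50 for Herc6, against -0.95 and 0.11 before. At ctrl and 0p5h the same step left Uba7 at -0.57 and -0.51. Within the 3 sequencing lanes that the column names give, the log2 differences of Uba7 (Cacnb3-/- minus WT) ran from -1.28 to -0.57. Every Cacnb3-/- library lay below every WT library of its set for this gene, so no lane could have given the other direction. Isg15 was lower in all 3 lanes at ctrl and in 2 of 3 at 0p5h and at 24h, but a lane held only 1 to 3 libraries of a genotype. The exception was lane 1 both times, at 0.13 and 1.07, where the WT libraries were those of s850 and s864.

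**Figure D2:**
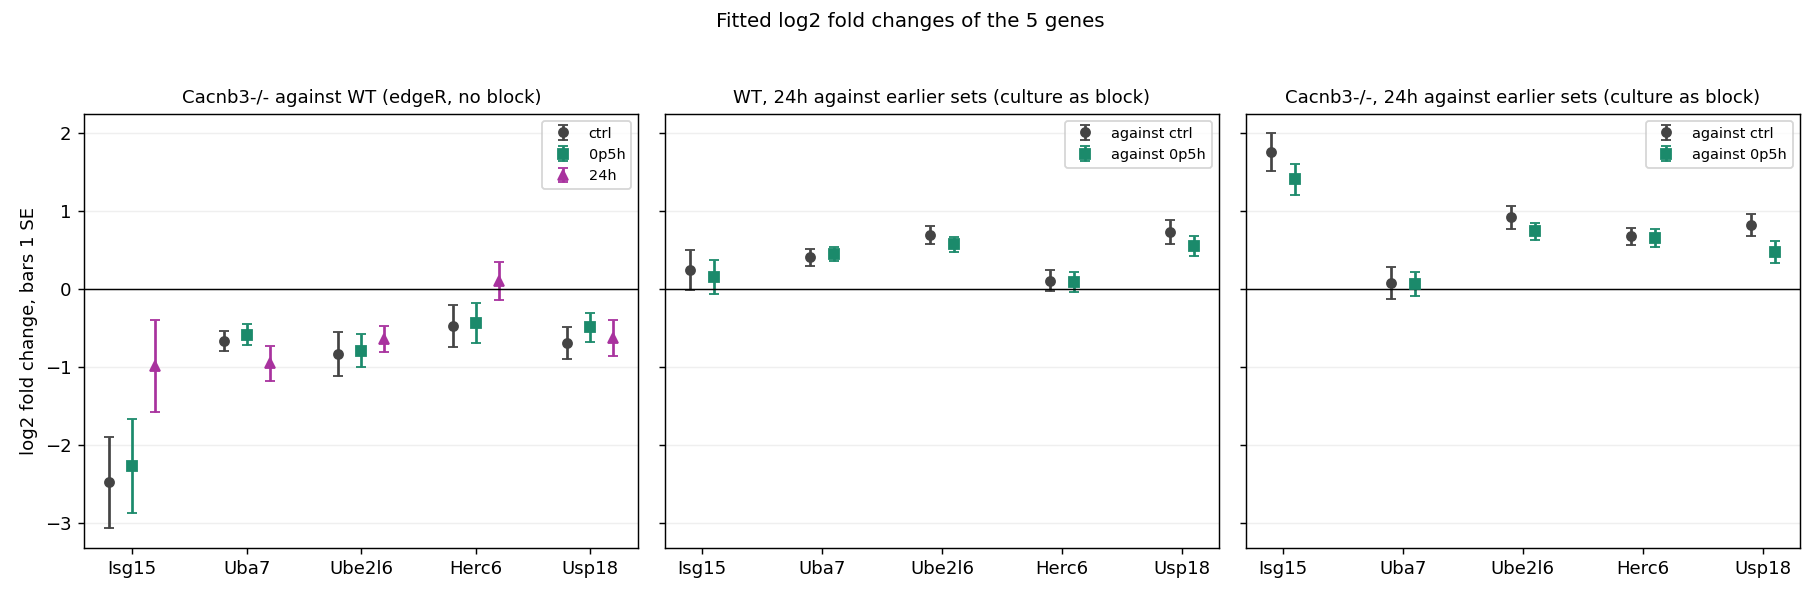
Fitted log2 fold changes (bars are 1 SE) of the 5 genes: Cacnb3-/- against WT in each set (left), and 24h against ctrl and against 0p5h in WT (middle) and in Cacnb3-/- (right) with the culture as a block. Isg15 lies at -2.48 and -2.27 between genotypes in the first 2 sets and at -0.98 at 24h, and at 1.41 from 0p5h to 24h in Cacnb3-/-. For 24h against ctrl in Cacnb3-/- the block did not meet the pairing criterion. The lowest correlation of same-numbered libraries there was 0.0891, and 0.1 was required.

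Summed marker levels of each cell type overlapped between the genotypes, and the part of cell types in the differences was not tested. Such a sum follows its highest members, and the overlap of single markers was not examined. In bulk RNA, fewer cells of a type and less RNA per cell cannot be told apart. The summed level of 10 dendritic cell markers was 26826 to 39651 CPM in WT against 17695 to 31620 in Cacnb3-/- at ctrl, and from 21048 to 36108 against 16104 to 27459 at 24h. The 8 macrophage markers ran from 1108 to 1950 CPM against 681 to 2676 at ctrl, and the 9 granulocyte markers from 138 to 535 against 236 to 460. Markers of B cells summed to at most 5.05 CPM in any library, those of T and NK cells to at most 1.67, of mast cells to at most 5.78 and of erythroid cells to at most 0.257. For plasmacytoid dendritic cells, known as strong producers of interferon, 5 markers summed to 16.3 to 28.3 CPM in WT and 10.8 to 24.5 in Cacnb3-/- at ctrl. Nearly all of this sum was Pacsin1, the only 1 of the 5 above the low-count filter, with means of 19.4 CPM in WT and 16.2 in Cacnb3-/-. Siglech, Ccr9, Klk1 and Cox6a2 had at most 11 reads in any library, so the sum does not show that these cells were present. No marker of any list was at 0 in all libraries.

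The step from ctrl to 0p5h asks which genes ATP moves at the end of its 30 min pulse, although the labels do not fix the direction. The mean change within cultures (0p5h minus ctrl, log2 CPM) was -0.04 ± 0.18 for Uba7 and 0.01 ± 0.13 for Herc6 in WT, and 0.03 ± 0.39 and 0.04 ± 0.10 in Cacnb3-/- (SD, n = 5). Isg15 moved by 0.11 ± 0.68 in WT and by 0.34 ± 0.69 in Cacnb3-/-, with single cultures from 0.489-fold (s850) to 1.76-fold (s864) in WT and from 0.846-fold (s852) to 2.35-fold (s843) in Cacnb3-/-. Ube2l6 moved by 0.11 ± 0.28 and 0.19 ± 0.21. Usp18 was higher at 0p5h in 4 of 5 WT cultures and in 5 of 5 Cacnb3-/- cultures, by 0.17 ± 0.17 and 0.36 ± 0.09, beside 9.33% and 9.25% of all genes that were higher in every culture.

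edgeR called none of the 4 from ctrl to 0p5h, beside 0.176% of all genes in WT and 0.29% in Cacnb3-/-, and none of the 4 had an unadjusted p under 0.05, beside 4.54% and 3.99% of all genes. With the culture as a block, Usp18 in Cacnb3-/- was higher at 0p5h by 0.34 (log2, SE 0.0675, adjusted p = 0.0287). That was below 2-fold, and 1.62% of all genes were higher at an adjusted p under 0.05 in that fit. The block called none of the 4 at 2-fold, beside 0.581% of all genes in WT and 0.643% in Cacnb3-/-, and DESeq2 called none with or without it. In WT none of the 4 passed the adjusted p alone with the block, beside 3.29% of genes that rose and 2.67% that fell, and in Cacnb3-/- none fell, beside 0.729%.

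By 24h several genes of the cycle stood higher in each genotype, and Uba7 did so in WT, with no vehicle library at 24 h to set beside them. From 0p5h to 24h the mean change within WT cultures was 0.44 ± 0.22 for Uba7, 0.57 ± 0.23 for Ube2l6 and 0.55 ± 0.39 for Usp18 (log2 CPM, SD, n = 5), and each was higher in 5 of 5 cultures. Isg15 moved by 0.13 ± 0.69 and Herc6 by 0.09 ± 0.40, each up in 3 of 5. Among all 13755 genes 12.4% were higher in every WT culture.

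From 0p5h to 24h in the Cacnb3-/- cultures Isg15 moved by 1.43 ± 0.64, Ube2l6 by 0.73 ± 0.28 and Herc6 by 0.65 ± 0.30, each higher in 5 of 5 cultures, beside 16.2% of all genes. Usp18 moved by 0.46 ± 0.42 and was higher in 4 of 5 cultures. Uba7 moved by 0.04 ± 0.51 and was higher in 3 of 5, with a range over cultures from -0.62 to 0.69. Culture s843, which had the largest share of mitochondrial reads at 24h, held the lowest Uba7 at 24h and the highest Isg15.

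Without a block, edgeR called none of the 4 from 0p5h to 24h in WT, beside 0.639% of all genes, or in Cacnb3-/-, beside 0.66%. At an unadjusted p under 0.05 it gave 2 of the 4 in WT, beside 1438 of all 12830 genes (11.2%), and 4 of the 4 in Cacnb3-/-, beside 2222 of 12730 (17.5%). The log2 fold changes in Cacnb3-/- were 1.45 for Isg15 (SE 0.362, adjusted p = 0.0969), 0.72 for Ube2l6 (SE 0.181, adjusted p = 0.0993), 0.65 for Herc6 (SE 0.214, adjusted p = 0.191) and 0.47 for Usp18 (SE 0.181, adjusted p = 0.236), and that of Uba7 was 0.10 (SE 0.222). Same-numbered libraries of these sets deviated together, so the fit with the culture as a block is given beside it.

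With the culture as a block, edgeR called Isg15 from 0p5h to 24h in Cacnb3-/-, at a log2 fold change of 1.41 (SE 0.199, adjusted p = 0.000781). It was 1 of the 4, beside 2.88% of all genes. Ube2l6 at 0.74 (SE 0.109, adjusted p = 0.00104), Herc6 at 0.66 (SE 0.114, adjusted p = 0.00241) and Usp18 at 0.48 (SE 0.138, adjusted p = 0.0260) rose below 2-fold, beside 14.2% of all genes that rose at this adjusted p. Uba7 stood at 0.06 (SE 0.156). DESeq2 also called Isg15, with the block beside 1.31% of all genes and without it beside 0.805%. The count stayed at 1 when any 1 Cacnb3-/- culture was left out of the blocked edgeR fit.

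In WT the blocked edgeR fit called none of the 4 from 0p5h to 24h, beside 1.78% of all genes. Below 2-fold, Ube2l6 rose by 0.57 (log2, SE 0.0923, adjusted p = 0.00515) and Usp18 by 0.55 (SE 0.133, adjusted p = 0.0287), beside 4.52% of all genes, and Uba7 stood at 0.45 (SE 0.0902). Isg15 at 0.15 (SE 0.221, adjusted p = 0.688) and Herc6 at 0.09 (SE 0.132, adjusted p = 0.679) did not pass. Without WT culture s846, in which Isg15 was highest at 24h, the blocked change of Isg15 was -0.05.

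Read from ctrl instead, the 24h libraries gave like values, and since both readings use the same 24h libraries they are not 2 results. In WT the log2 fold change from ctrl to 24h was 0.31 for Isg15 (SE 0.741, edgeR adjusted p = 0.930), 0.66 for Ube2l6, 0.09 for Herc6, 0.75 for Usp18 and 0.42 for Uba7 (SE 0.137). None of the 4 was called, beside 0.0152% of all genes, and 2 of the 4 had an unadjusted p under 0.05, beside 1106 of all 13176 genes (8.39%). With the block, Ube2l6 at 0.69 (SE 0.114, adjusted p = 0.0101) and Usp18 at 0.73 (SE 0.156, adjusted p = 0.0269) rose below 2-fold, beside 2.41% of all genes, and none of the 4 fell, beside 3.64%. That fit called none at 2-fold, beside 0.926%. Uba7 and Ube2l6 were higher than at ctrl in 5 of 5 WT cultures, beside 8.99% of all genes. In Cacnb3-/- the values were 1.81 for Isg15 (SE 0.355, adjusted p = 0.162), 0.85 for Ube2l6, 0.68 for Herc6, 0.82 for Usp18 and 0.13 for Uba7 (SE 0.209). There Isg15, Ube2l6, Herc6 and Usp18 were higher in 5 of 5 cultures, beside 13.5% of all genes. edgeR called none of the 4, beside 0% of all genes, while 4 of the 4 were under 0.05 before adjustment, beside 1343 of all 12452 genes (10.8%). DESeq2 called Isg15, beside 0.191% of all genes.

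Whether the 2 genotypes changed differently was tested as an interaction. From 0p5h to 24h the difference of the changes (Cacnb3-/- minus WT, log2) was 1.30 for Isg15 (SE 0.908), 0.55 for Herc6 (SE 0.381), 0.15 for Ube2l6 (SE 0.279) and -0.13 for Usp18 (SE 0.309), with edgeR adjusted p-values of 0.690 to 0.906, and -0.37 for Uba7 (SE 0.266). From ctrl to 24h it was 1.501 for Isg15 (SE 0.887, adjusted p = 0.753) and -0.28 for Uba7 (SE 0.263). edgeR called none of the 4 in any of the 3 interactions and 0% of all genes, and none of the 4 had an unadjusted p under 0.05, beside 0.223% to 5.88% of all genes. With the culture as a block the difference for Isg15 from 0p5h to 24h was 1.2505 (SE 0.332, adjusted p = 0.108) and that for Herc6 0.56 (SE 0.184, adjusted p = 0.108), with 0 of 4 called at 2-fold beside 0.00745% of all genes. DESeq2 with the block gave adjusted p-values of 0.0371 and 0.0485 for these 2 genes, beside 3.1% of all genes under 0.05, and called Isg15, beside 0.146%.

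Other genes named for ISG15 were followed from a list of 9, which holds the ligases Trim25 and Arih1, the conjugating enzymes Ube2e1 and Ube2e2, the proteases Usp5, Usp14, Usp16 and Usp21, and Itgal, a chain of the integrin LFA-1 that serves as a receptor of secreted ISG15. None was called in any of the 12 comparisons by edgeR, beside 0% to 0.66% of all genes. Between genotypes at 24h 3 of 9 had an unadjusted p under 0.05, beside 38.4% of all genes. Their median log2 fold change there was -0.03, beside 0.01 over all genes tested, and the lowest adjusted p was that of Usp14 (0.38, SE 0.131, adjusted p = 0.0632). With the block, Trim25 fell by 0.44 from 0p5h to 24h in Cacnb3-/- (SE 0.0864, adjusted p = 0.00467) and Usp5 by 0.28 (SE 0.0911, adjusted p = 0.0420), which made 2 of 9 beside 14.4% of all genes. In WT only Itgal fell in that fit, by 0.41 (SE 0.112, adjusted p = 0.0458), beside 6.78% of all genes.

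Enzymes of the same families that do not serve ISG15 were taken as a second list of 7. They were the ubiquitin-activating enzymes Uba1 and Uba6, the conjugating enzyme Ube2l3 and the ligases Herc1, Herc2, Herc3 and Herc4. edgeR called none in any comparison. Between genotypes at 24h Uba1 stood at -0.84 (SE 0.252, adjusted p = 0.0527) and Herc4 at 0.61 (SE 0.185, adjusted p = 0.0529), and the median of the list was -0.14. Uba1, the activating enzyme of ubiquitin, thus had a difference near that of Uba7 at 24h, and at ctrl it stood at -0.50 (SE 0.154, adjusted p = 0.246). From 0p5h to 24h with the block, Herc3 and Herc4 rose in Cacnb3-/-, 2 of the 7 beside 14.2% of all genes, and Uba1 fell, 1 of the 7 beside 14.4%. In WT Ube2l3 rose in that fit by 0.32 (SE 0.0755, adjusted p = 0.0258), 1 of the 7 beside 4.52%, and from ctrl to 24h by 0.38 (SE 0.0881, adjusted p = 0.0367) beside 2.41%.

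The receptors and factors that carry the interferon signal formed a list of 16, and none was called between genotypes by edgeR. Of the 16, 13 had a negative log2 fold change at ctrl, with a median of -0.31 beside 0.03 over all genes. The lowest adjusted p there was 0.243, shared by Irf7 at -3.81 (SE 0.835), Stat2 at -1.25 (SE 0.290), Irf9 at -0.76 (SE 0.214) and Tyk2 at -0.43 (SE 0.119). Irf7 is the factor that amplifies interferon production, Stat2 and Irf9 belong to ISGF3, and Tyk2 is a kinase of the receptor. From 0p5h to 24h in Cacnb3-/-, Irf9 rose by 0.85 (SE 0.130, adjusted p = 0.0102) and Stat2 by 0.62 (SE 0.122, adjusted p = 0.0366), by edgeR without a block. Both were below 2-fold and no other of the 16 rose at that adjusted p, so none of the 16 was called as higher. Over all genes that fit called 0.66%.

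The interferon genes themselves were at or near the floor of detection. Ifnb1 had 0 to 11 reads per library, and of the other 10 interferon genes listed 7 had none in any library and 3 had at most 2. Interferon made by few cells, before collection or outside the RNA, was not detectable this way.

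A list of 38 type I interferon-stimulated genes, none of them among the 5, was read in the same fits. At ctrl 36 of the 38 had a negative log2 fold change between genotypes, with a median of -1.18 beside 0.03 over all genes, and at 24h 31 of 38 did, with a median of -0.45. edgeR called none in any set. At an unadjusted p under 0.05 it gave 34, 28 and 6 of the 38 at ctrl, 0p5h and 24h. The shares over all genes were 16.6%, 16.4% and 38.4%. The largest differences at ctrl were those of Ifi44 (-3.43, SE 0.787), Oasl1 (-3.13, SE 0.664) and Oasl2 (-2.82, SE 0.613), all with an adjusted p of 0.243.

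From 0p5h to 24h in Cacnb3-/- 37 of the 38 stood higher, with a median of 0.95 beside 0.00 over all genes. edgeR called 4 of them without the block, Ifit1 (2.81, SE 0.580, adjusted p = 0.0469), Ifit3b (2.57, SE 0.467, adjusted p = 0.0263), Irgm1 (1.33, SE 0.220, adjusted p = 0.0162) and Trim30a (1.21, SE 0.226, adjusted p = 0.0300). The share of all genes called without the block was 0.66%. With the block edgeR called 18 of 38, beside 2.88% of all genes, and 34 rose at an adjusted p under 0.05, beside 14.2%. In WT the blocked fit called 2 of 38, Ifit3 and Ifit3b, beside 1.78% of all genes, and 8 rose, beside 4.52%. Ifit3 and Ifit3b are near-identical copies between which reads may be split, so their single values are uncertain.

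The 5 genes followed this list to different degrees across the 30 libraries. Taking for each library the median of the 38 genes (centred log2 CPM), Pearson's r was 0.96 for Isg15, 0.79 for Usp18, 0.73 for Ube2l6, 0.73 for Herc6 and 0.49 for Uba7. Within the 15 WT libraries r was 0.97 for Isg15, 0.90 for Herc6 and 0.54 for Uba7, and within the 15 Cacnb3-/- libraries it was 0.91, 0.47 and -0.27. These are descriptions, since libraries of 1 culture and 1 set share much else. The levels of the list in WT ran from -0.74 in culture s864 to 1.49 in culture s846.

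**Figure D3:**
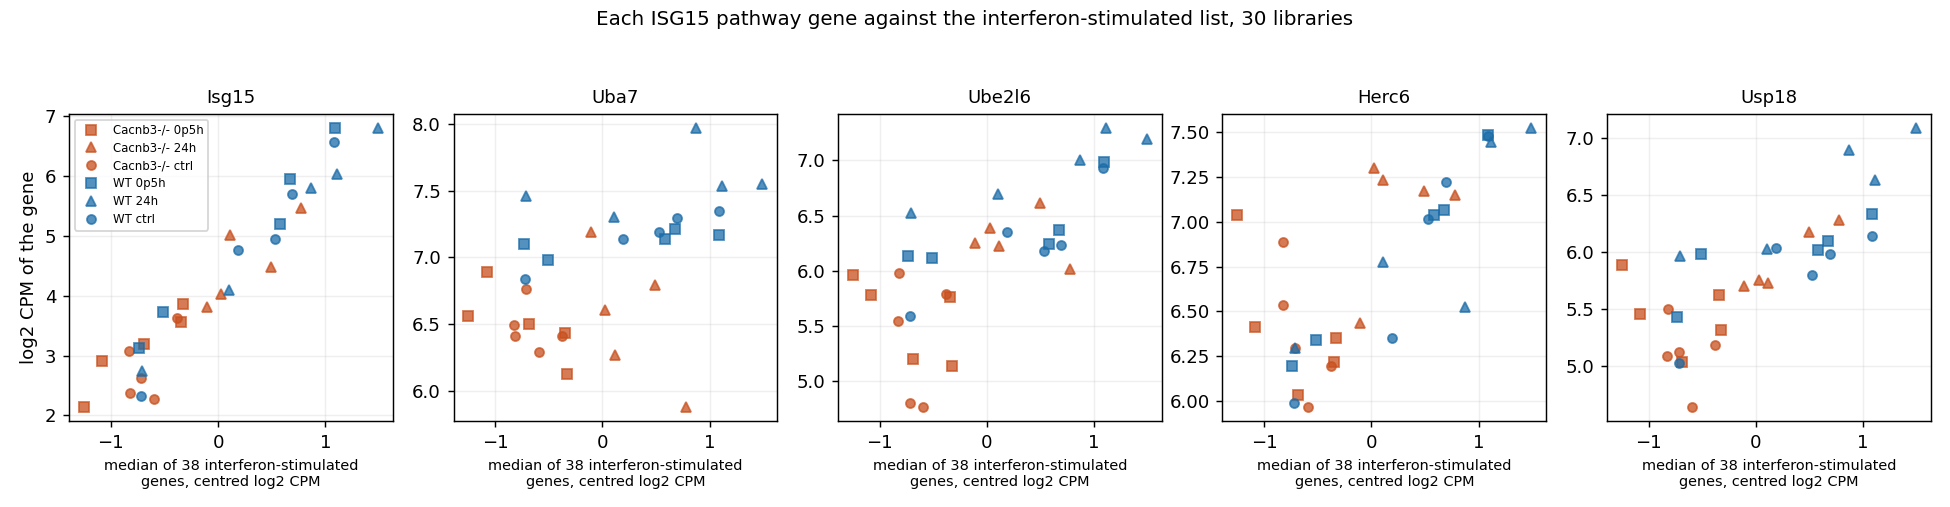
log2 CPM of each gene against the median of 38 interferon-stimulated genes (centred log2 CPM) in the 30 libraries; colour gives the genotype and shape the set. Isg15 follows the list closely (r = 0.96), while Uba7 separates by genotype only within a set and has r = -0.27 within Cacnb3-/-.

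Among the 5 themselves, Ube2l6 and Usp18 were the most alike over the 30 libraries (r = 0.89), and Uba7 and Herc6 the least (r = 0.25). Uba7 had r = 0.71 with Ube2l6, 0.63 with Usp18 and 0.48 with Isg15. Within the Cacnb3-/- libraries its r with Isg15 was -0.31 and with Usp18 0.00, while in WT they were 0.47 and 0.81. The other 4 kept positive r with one another in both genotypes, from 0.50 to 0.90.

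The genes most like each of the 5 over the 30 libraries, by Pearson's r of log2 CPM among 13755 genes, also differed. For Isg15 they were Oasl2 (r = 0.97), Xaf1 (0.97) and Irf7 (0.97), and 7 of its 10 nearest genes were in the interferon list. For Uba7 they were Ap1g2 (0.95), a subunit of a clathrin adaptor, Zfp513 (0.93) and Rgs12 (0.93), and none of its 10 nearest genes was in the list. Ube2l6 was most like Tapbpl (0.95), which edits peptides on MHC class I, Synpo2 (0.92) and Nsun4 (0.92), and Herc6 most like Chpt1 (0.94) and Uhrf2 (0.93), with none of either gene's 10 nearest in the list. Usp18 was most like Ssbp3 (0.86), Ifi35 (0.85) and 4833407H14Rik (0.84), with 4 of 10 in the list.

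Uba7 was also read against the 2 library measures that moved with genotype. Its highest level, 251 CPM in WT culture s856 at 24h, stood in the library with the lowest share of mitochondrial reads (0.707%) and the highest GC trend (1.03). Its lowest, 58.7 CPM in Cacnb3-/- culture s843 at 24h, stood in the library with the highest share (16.5%) and a GC trend of -0.88. Cacnb3-/- culture s865 had 2.16% to 3.21% mitochondrial reads and GC trends of 0.11 to 0.25, within the range of WT. Its Uba7 stood at 78.3, 90.4 and 146 CPM. These lay below each WT library of the same set, as did every other Cacnb3-/- library, so this position is not particular to s865. The part of either measure in the difference was not tested further, and s865 was 1 culture.

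**Figure D4:**
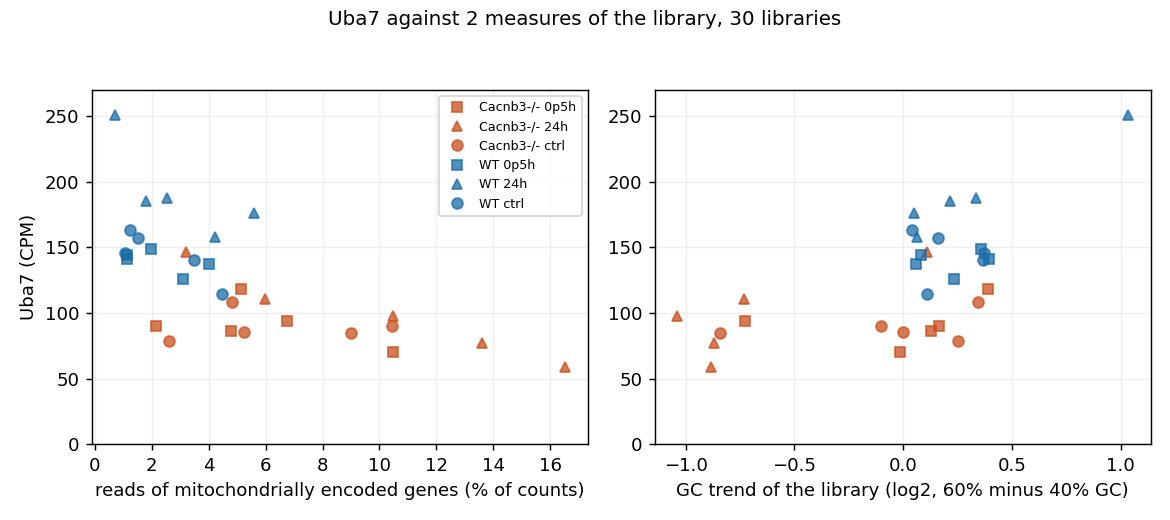
Uba7 (CPM) against the share of mitochondrial reads (left, percent of counts) and against the GC trend (right, log2, genes of 60% minus genes of 40% GC) in the 30 libraries; colour gives the genotype and shape the set. Uba7 is highest, at 251 CPM, at the lowest mitochondrial share of 0.707% and lowest, at 58.7 CPM, at the highest of 16.5%.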

How the data were processed

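The deposited file held raw counts of reads per gene, which the authors made with STAR 2.4 on mm10 (per the labels) and featureCounts 1.5.1 with Ensembl 79 on GRCm38 (per the file header), with no option for strand or multiply mapped reads. Strand was therefore not used, and antisense reads could not be told apart. Every sample column belonged to a library of the series. Symbols came from GENCODE M39 by gene ID, for 89.4% of IDs, and RefSeq windows were matched by symbol.

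Counts were scaled by TMM to CPM. Each comparison was fitted on the whole table, on its own libraries, with edgeR 4.0.16 (filterByExpr, glmQLFit, glmQLFTest, two-sided, R 4.3.3). DESeq2 1.42.0, limma-voom 3.58.1, other scalings and filters, a GC correction (lowess span 0.3), the culture as a block, the sequencing lane and leaving out each culture were alternatives. Same-numbered libraries correlated over 0.1 in 29 of 30 pairs (median 0.573, lowest 0.0891, between ctrl and 24h in Cacnb3-/-), so the block is given in the text except for comparisons of that pair of sets. Fits were tested on simulated data. Precision rests on 8237393 to 32164225 counts per library; p-values cover the spread between cultures.

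The 5 genes, the lists and the tests were chosen with earlier results of these data known. Genes named from a list were those called, at most 6, or else up to 4 with the lowest adjusted p, and the 3 most like each of the 5. One result among the latter is not reported here.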

Additional observations from a re-analysis of the deposited data

Results flagged for a closer look

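In 30 groups of 5 libraries (5 genes, 6 groups), 2 held a library far from the rest, its gap to the nearest library being over 0.71 of the whole range, and chance gives about 1 in 20. Ube2l6 stood at 126.8 CPM in WT culture s855 at 0p5h, with the next library at 82.8 CPM (gap over range 0.768). Herc6 stood at 86.6 CPM in Cacnb3-/- culture s865 at 24h, with the next at 142 CPM (0.782).

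The change from 0p5h to 24h differed between genotypes by DESeq2 with the culture as a block, by 1.296 for Isg15 (log2, SE 0.415, adjusted p = 0.0371) and by 0.565 for Herc6 (SE 0.198, adjusted p = 0.0485), both larger in Cacnb3-/-. edgeR with the same block gave an adjusted p of 0.108 for each, and DESeq2 without the block 0.992. Over all settings the adjusted p ran from 0.0165 to 1 for Isg15 and from 0.0377 to 1 for Herc6. Isg15 was higher at 24h in 5 of 5 Cacnb3-/- and 3 of 5 WT cultures, and so was Herc6.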

How the results depend on the processing

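Of the 4 genes other than Uba7, the count called was 0 in all 12 comparisons and rose to 1 under DESeq2 between genotypes at ctrl. In Cacnb3-/- it rose to 1 from ctrl to 24h and from 0p5h to 24h under DESeq2, without the low-count filter, with the replicate block and under DESeq2 with the block. The GC trend removed together with the block gave 2 and 1, and DESeq2 with the block gave 1 for the interaction from 0p5h to 24h. Leaving out 1 culture gave 0 to 1 between genotypes at ctrl (1 without WT culture s864). With the block as well, an alternative chosen after seeing the data like the lane term, it gave 1 to 2 in Cacnb3-/- from ctrl to 24h, 1 from 0p5h to 24h and 0 to 1 for that interaction (1 without culture s865). From ctrl to 24h in Cacnb3-/- the numbers did not meet the pairing criterion. There the block gave Isg15 1.76 (adjusted p = 0.00613).

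Among the single log2 fold changes of these 4 genes, 438 of 456 kept their direction and call, 13 passed the threshold only in the alternative and 5 reversed, while the 114 of Uba7, which has no test, kept their direction. Herc6 between genotypes at 24h (0.11) became -0.50 without the GC trend and -0.058 with the lane term. Herc6 from ctrl to 0p5h in WT (0.0040) became -0.014 without the filter and -0.0095 with all libraries in one fit. The Usp18 interaction from 0p5h to 24h (-0.13) became 0.0046 with the GC trend removed and the replicate block. The causes were not tested.

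Leaving out 1 culture at a time, 558 of 600 values of these 4 genes kept direction and call, 13 passed the threshold only then and 29 reversed, and 12 of 150 of Uba7 reversed, all within these ranges, given without and then with the replicate block. Herc6 ran from -0.018 to 0.27 between genotypes at 24h (no block), from -0.022 to 0.046 and -0.024 to 0.058 from ctrl to 0p5h in WT, from -0.033 to 0.23 and -0.0031 to 0.24 from 0p5h to 24h in WT, and from -0.015 to 0.081 and -0.0080 to 0.069 from ctrl to 0p5h in Cacnb3-/-. Isg15 in WT ran from -0.11 to 0.74 and -0.0028 to 0.48 from ctrl to 24h, and from -0.24 to 0.67 and -0.053 to 0.42 from 0p5h to 24h, negative without culture s846. Uba7 in Cacnb3-/- ran from -0.073 to 0.19 and -0.069 to 0.18 from ctrl to 0p5h (blocked, -0.012 without s852 and -0.019 without s865), from -0.10 to 0.34 and -0.13 to 0.31 from ctrl to 24h, and from -0.099 to 0.28 and -0.11 to 0.23 from 0p5h to 24h, negative at 24h without culture s865. Interactions from ctrl to 0p5h ran from -0.062 to 0.37 and 0.042 to 0.43 for Isg15, -0.032 to 0.24 and -0.036 to 0.23 for Uba7, -0.013 to 0.12 and -0.0069 to 0.17 for Ube2l6, and -0.0062 to 0.080 and -0.026 to 0.057 for Herc6 (blocked, -0.017 without s852). The Usp18 interaction ran from -0.087 to 0.22 and -0.081 to 0.23 from ctrl to 24h, and from -0.28 to 0.026 and -0.21 to 0.060 from 0p5h to 24h (blocked, 0.0023 without s856).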
